A study of Mus musculus with 2 samples.

Results

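Genes of arginine use, synthesis and uptake were followed in sections of mouse melanoma. They are Arg1, Arg2, Nos2, Ass1, Asl, Oat, Slc7a1 and Slc7a2. They were chosen by name, as 8 of the 19465 genes in the count matrices; the rule uses no measured value. RNA was mapped with Visium CytAssist, an assay in which probe pairs are joined on their target RNA in the fixed section and then captured on a slide of barcoded spots. A spot is a small area that can hold several cells of different types, and each captured molecule is counted once by its unique molecular identifier (UMI). The KO section came from a B16.F10 tumour in a Foxp3-Cre × CK2b-fl/fl mouse (Csnk2bTreg-/-), in which Cre under the Foxp3 promoter removes the floxed Csnk2b gene, the regulatory subunit of protein kinase CK2, from regulatory T cells. The WT section came from a B16.F10 tumour in a Csnk2bfl/fl mouse, which carries the floxed alleles without Cre. B16.F10 is a pigmented melanoma line of mouse, and its cells carry an intact Csnk2b in both hosts, as does every host cell that never expressed Foxp3. The mice were 8 to 16 weeks old and untreated, and tumours of similar size were taken on day 15, fixed in formalin and cut from paraffin at 10 µm.

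The KO section held 2746 spots and 94422680 UMIs, with a median of 36769 UMIs per spot, and the WT section held 3066 spots and 88735936 UMIs, with a median of 26818.5 UMIs per spot. With 1 section per genotype there was no replicate check and no test. Values are UMI counts scaled to a total of 1000000 over a section or a set of its spots (CPM), and intervals are 95% limits for counting error only. The spread inside a section is given over its 4 quadrants, cut at the median row and column of its spots. Quadrants carry numbers as names only and were not matched between sections. Csnk2b lay between 386 and 403 CPM over the KO quadrants and between 297 and 429 CPM over the WT quadrants. Since tumour cells and most host cells keep the gene, this does not check the deletion. The melanocytic markers of B16.F10 were all detected, with a sum of 49666 CPM in the KO and 43232 CPM in the WT section. Off-tissue genes, among them those for insulin and sperm protamines, gave a median of 47 UMIs in the KO and 21 UMIs in the WT section, which is the background of the probes. Probes differ in efficiency, so levels are compared between sections and places for 1 gene and not between genes.

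Arginine stands at a branch point of metabolism. Arginases split it into ornithine and urea, nitric oxide synthases turn it into nitric oxide and citrulline, and citrulline can be built back into arginine by argininosuccinate synthase and lyase. In tumours, arginase 1 is best known from macrophages and other myeloid cells, where the loss of extracellular arginine restrains T cells, while inducible nitric oxide synthase is known from macrophages stimulated with interferon gamma or bacterial products.

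Arg1 was by far the lowest of these genes in the KO section relative to the WT section, and Nos2 was the next lowest. Over whole sections 6 of the 8 genes had a KO over WT ratio below 1, against 38% of all 16961 genes with at least 50 UMIs. Among the 8, the number at least 2-fold lower was 2, where 4.85% of all genes were, and 0 were at least 2-fold higher, where 14.7% of all genes were. Of the 11026 genes with at least 500 UMIs, 48.8% were below 1, 5.29% at least 2-fold lower and 0.952% at least 2-fold higher. The median log2 ratio of the 8 was -0.31, beside a median of 0.15 over all genes. With TMM factors the members' median was -0.53 and that of all genes -0.06, and no member changed direction under that scaling. Ass1, Oat, Slc7a1 and Asl had ratios between 0.797 and 1.20, and Arg2 and Slc7a2 were rare in both tumours.

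Arg1 (chromosome 10, 24915207 to 24927470 in GRCm38) encodes arginase 1, the cytosolic enzyme that makes ornithine and urea. It gave 2307 UMIs in the KO and 24239 UMIs in the WT section, or 24.4 CPM (23.4 to 25.4) and 273 CPM (270 to 277). The KO level was thus lower by 11.2-fold (10.7 to 11.7), the 15th lowest ratio of the 16961 genes. The quadrants gave 21.7, 6.23, 93.4 and 15.6 CPM in the KO section, against 1100, 164, 155 and 18.2 CPM in the WT section. Quadrant 1 of the WT section alone held 64.8% of its Arg1 UMIs, while quadrant 4 of that section lay below 2 of the KO quadrants, so the ranges overlapped. Leaving out the quadrant with the most Arg1 in each section gave a ratio of 0.132.

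**Figure D1:**
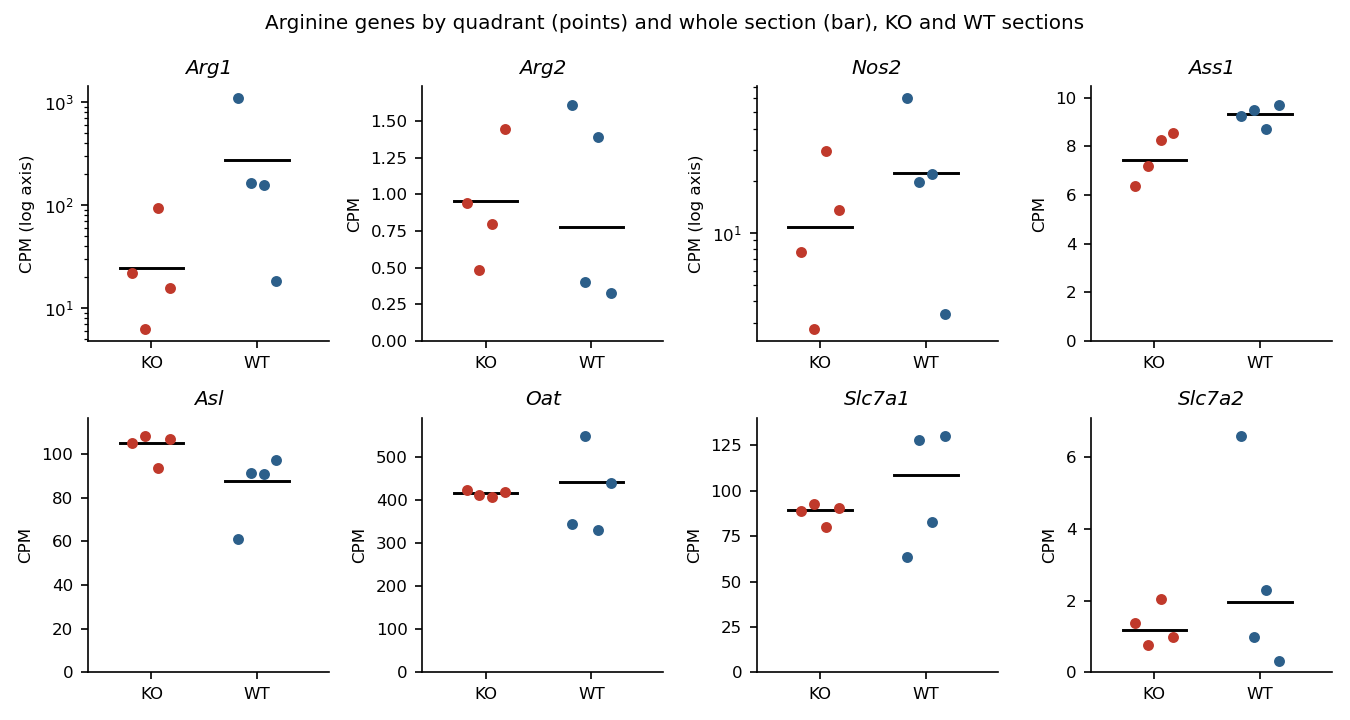
CPM of the 8 genes in the 4 quadrants (points) and over the whole section (bar) for KO (left) and WT (right); the Arg1 and Nos2 axes are logarithmic. Arg1 spans 6.23 to 93.4 CPM in KO and 18.2 to 1100 CPM in WT quadrants, and Ass1 is the gene whose 4 KO points all lie below the 4 WT points.

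The enzyme's RNA was gathered in patches in both tumours. The 10% of spots with the most Arg1 held 74.5% of it in the KO and 73.9% in the WT section. The patches were both fewer and lower in the KO section. Spots with at least 10 Arg1 UMIs numbered 43 in the KO and 567 in the WT section. The richest spot had 39 Arg1 UMIs in the KO and 265 in the WT section, and 0 spots of the KO section reached 50 UMIs, against 155 spots of the WT section. These 155 spots alone held 52.5% of the WT section's Arg1. Moran's I, the authors' deposited score of how far neighbouring spots resemble each other, was 0.483 for Arg1 in the KO section, where it ranked at 317 of 19339 genes, and 0.836 in the WT section, where it ranked at 4 of 19296 genes.

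Arg1-rich spots were rich in matrix genes. In the WT section the spots with at least 50 Arg1 UMIs had 128402 CPM of 16 fibroblast and matrix markers (collagens, Dcn, Lum, Postn, Fn1 and others, called stroma genes from here on) and 4481 CPM of melanocytic markers. The WT spots without Arg1 had 3170 CPM and 49676 CPM of the same lists. In the KO section the 43 spots with at least 10 Arg1 UMIs had 10161 CPM of stroma genes and 27913 CPM of melanocytic genes, and the KO spots without Arg1 had 1658 CPM and 52101 CPM. Macrophage and monocyte markers followed in the same order with a smaller span. They came to 4774 CPM in those 43 KO spots and 1217 CPM in KO spots without Arg1, and to 6257 CPM in the 155 richest WT spots and 1426 CPM in WT spots without Arg1.

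**Figure D2:**
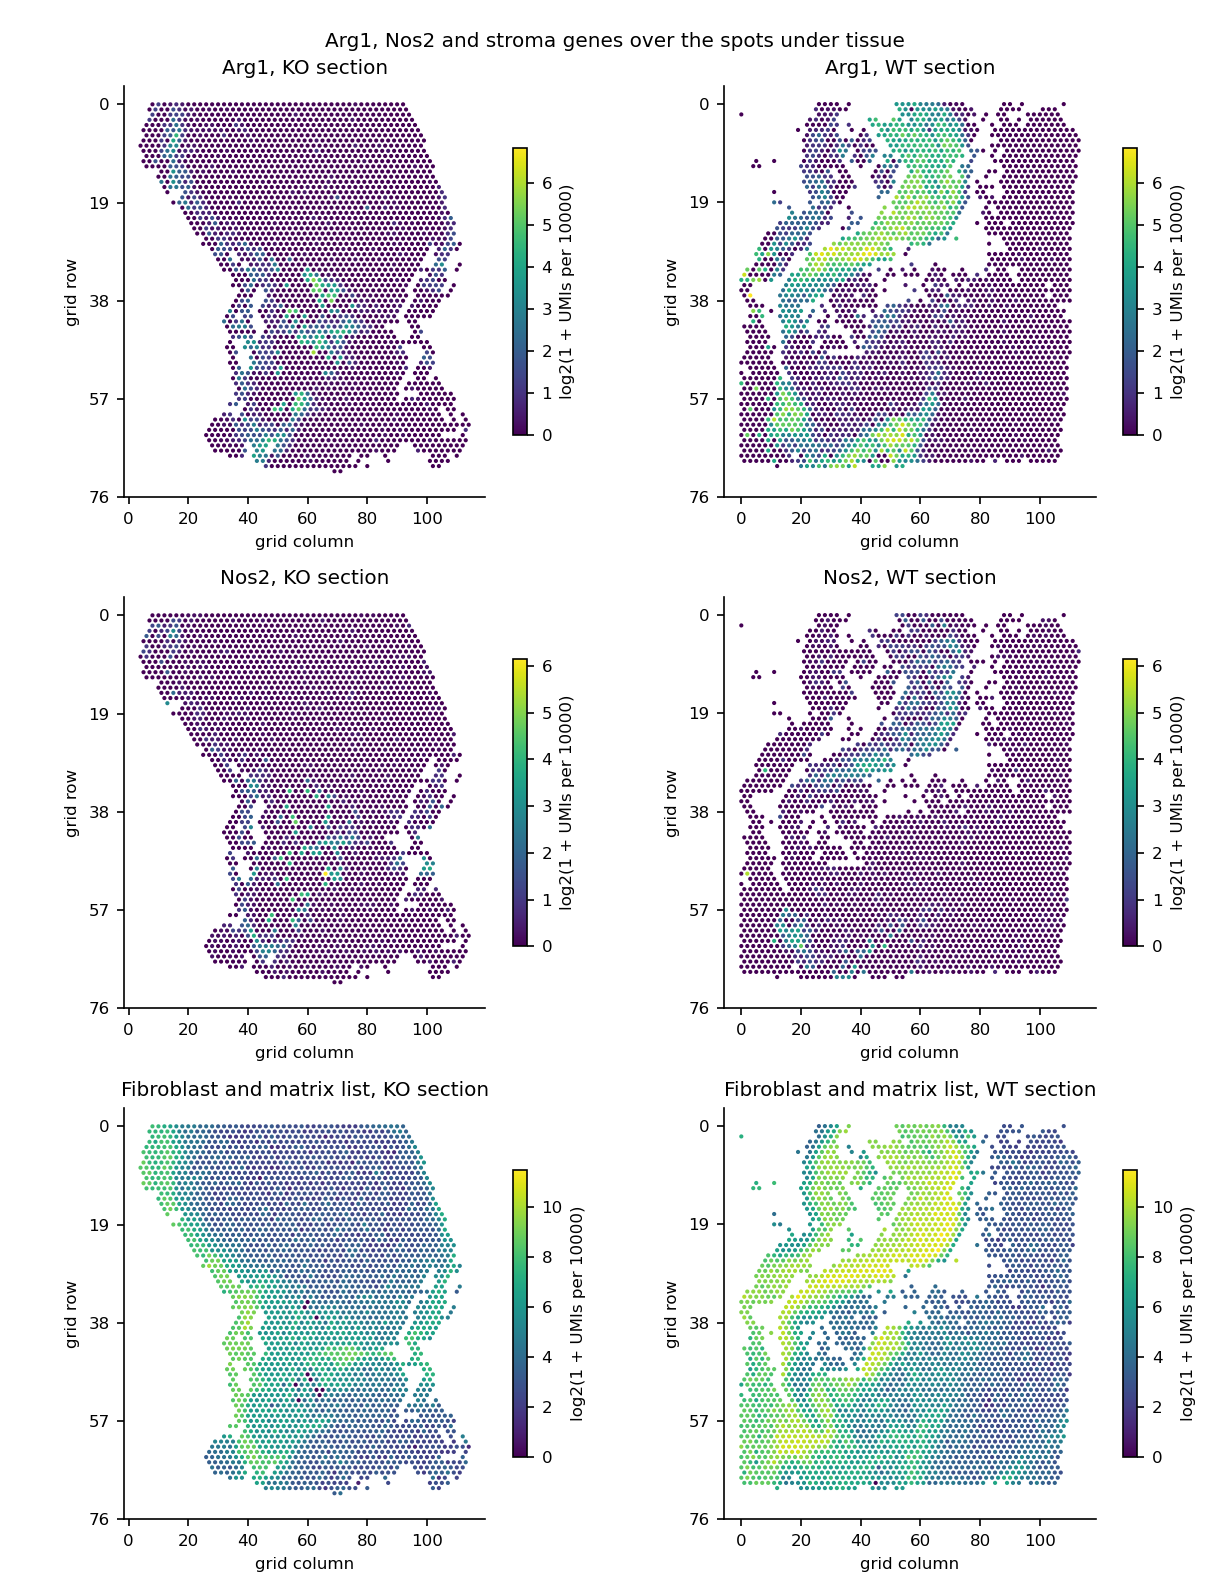
Each point is a spot under tissue at its grid row and column, coloured by log2(1 + UMIs per 10000) of Arg1 (top), Nos2 (middle) and the summed fibroblast and matrix genes (bottom), with the KO section on the left and the WT section on the right. Arg1 follows a broad stroma-rich band in the WT section, and lies in a few small patches and along part of the left rim in the KO section, where the stroma list is lower.

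These lists differed between the sections themselves. The stroma list summed to 2705 CPM in the KO section (quadrants 1089 to 7966) and 15231 CPM in the WT section (quadrants 1791 to 47201), and all 16 genes had a ratio below 1. The macrophage list summed to 1557 CPM in the KO section (quadrants 1041 to 3225) and 2199.6 CPM in the WT section (quadrants 1346 to 4489), and all 18 genes had a ratio below 1. Neutrophil markers were at 16.4 CPM in the KO and 13.9 CPM in the WT section (quadrants 6.52 to 28.5 and 4.38 to 35.9), with 3 of the 8 measured genes below a ratio of 1. No marker of these lists was at 0 in either section. In sums over spots, fewer cells of a type and less RNA per cell cannot be told apart.

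Arg1 was therefore read at matched stroma content as well. Spots of both sections were pooled, ordered by the share of their UMIs in stroma genes and cut into 5 quintiles of equal size. From the lowest to the highest quintile, Arg1 stood at 2.14, 2.25, 17.2, 123 and 237 CPM in the KO section, against 0.990, 3.33, 18.4, 210 and 1592 CPM in the WT section. In quintiles 1 to 3 neither section was higher throughout, and in quintiles 4 and 5 WT was higher. Quintile 5 held 201 KO and 962 WT spots.

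Deciles of spots gave finer steps. The KO over WT ratio of Arg1 was 1.62 (0.647 to 4.81) and 2.77 (1.39 to 6.02) in deciles 1 and 2, on 25 and 38 KO UMIs and 6 and 11 WT UMIs. It was 1.03, 0.517, 0.802 and 1.13 in deciles 3 to 6, and 0.782 (0.710 to 0.862), 0.551 (0.503 to 0.603), 0.491 (0.439 to 0.549) and 0.0579 (0.0233 to 0.119) in deciles 7 to 10. The last value rests on 9 KO spots with 7 Arg1 UMIs, beside 573 WT spots with 18590. That decile held 76.7% of all Arg1 in the WT section. Stroma content was not equal inside it, at 77860 CPM in its KO spots and 108953 CPM in its WT spots. Without it Arg1 stood at 24.4 CPM in the KO and 70.4 CPM in the WT section, a ratio of 0.346 (0.330 to 0.363). Weighting the other KO deciles like the WT deciles brought the ratio to 0.606, and weighting all 10 that way to 0.186. These settings were added after seeing the data. Under each of them Arg1 stayed lower in the KO section, by amounts from 1.65-fold to 5.39-fold.

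**Figure D3:**
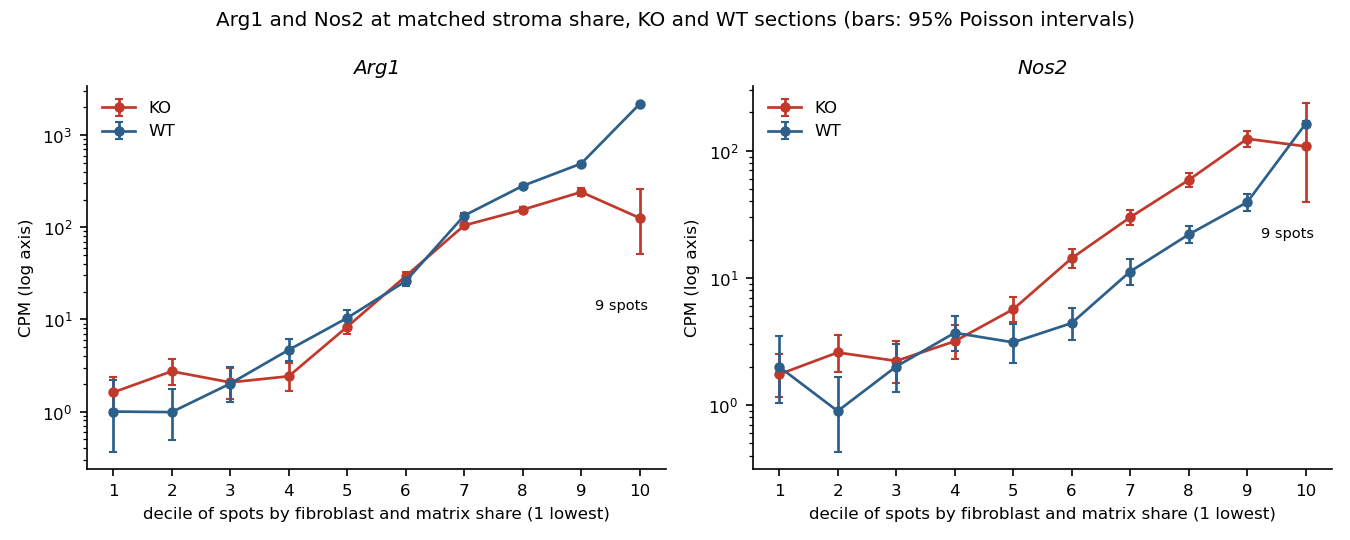
CPM of Arg1 (left) and Nos2 (right) on a logarithmic axis in deciles of spots ordered by stroma share, for KO and WT, with 95% Poisson intervals; the last KO decile has 9 spots. The Arg1 curve of KO lies above WT in deciles 1 and 2, the curves meet in deciles 3 and 6 and part from decile 7 on, where WT lies above KO. The KO curve of Nos2 lies above WT in deciles 2 and 3 and from decile 5 to decile 9.

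Per 1000 UMIs of stroma genes, Arg1 gave 9.03 UMIs in the KO and 17.9 UMIs in the WT section, a ratio of 0.504. Its quadrants gave 9.76, 5.72, 11.7 and 6.16 in the KO section, against 23.3, 19.3, 7.75 and 10.1 in the WT section, and they overlapped. Per 1000 UMIs of macrophage genes the section values were 15.7 in KO and 124 in WT, 7.91-fold lower in the KO section. Each of these scalings changes the ratio of every gene by the same factor, set by the list sums. Those sums had KO over WT ratios of 0.178 for stroma genes and 0.708 for macrophage genes. The smaller Arg1 gap per stroma UMI than per macrophage UMI follows from these sums and is no property of Arg1. The part of stroma content in the difference was not tested.

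Spots were also sorted by both lists at once, as high where a list took at least its upper quartile over all spots, 0.3003% of UMIs for macrophage genes and 1.43% for stroma genes. In spots high in both lists (296 KO, 899 WT) Arg1 stood at 209 CPM in the KO and 1443 CPM in the WT section, a ratio of 0.145 (0.133 to 0.158). There 7 of the 8 genes had at least 50 UMIs, and Arg1 was the 1 gene at least 2-fold lower, where 5.02% of 11476 genes were, and 0 were at least 2-fold higher, where 5.25% were. Where macrophage genes alone were high (173 KO, 86 WT spots) it stood at 180 CPM in the KO and 389 CPM in the WT section, a ratio of 0.462 (0.408 to 0.524), where 1.29% of genes were at least 2-fold lower. Where stroma genes alone were high (24 KO, 234 WT spots) the values were 152 CPM in KO and 848 CPM in WT, a ratio of 0.179 (0.136 to 0.231), where 6.21% of genes were at least 2-fold lower and 2.9% at least 2-fold higher. Among spots high in neither list (2253 KO, 1847 WT) they were 13.7 CPM in KO and 26.6 CPM in WT, a ratio of 0.516 (0.480 to 0.555). There 0 members were at least 2-fold lower, where 0.672% of genes were, and 1, Arg2, was at least 2-fold higher, where 15.6% were, on counts near the probe background. Arg1 was thus lower in the KO section in all 4 classes, the least so among spots high in neither list and spots high in macrophage genes alone.

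The classes were not alike inside. Spots high in both lists differed in makeup, since there the macrophage list summed to 15717 CPM in the KO and 7232 CPM in the WT section, and the stroma list to 31754 CPM in the KO and 80428 CPM in the WT section. Where stroma genes alone were high, the stroma list summed to 17777 CPM in KO and 41680 CPM in WT. It was near even where macrophage genes alone were high, at 8110 CPM in KO and 8131 CPM in WT. In spots high in neither list it was 1625 CPM in KO and 2094 CPM in WT. The part of stroma content in the order of the class ratios was not tested. Spots high in both were also shallow, with medians of 7025.5 UMIs in KO and 11739 in WT. Where Arg1 sat differed too. In the KO section 52.9% of its UMIs came from spots high in neither list, 23.5% from spots high in both and 21.1% from spots high in macrophage genes alone, whereas in the WT section 7.74%, 74.9% and 2.17% did.

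**Figure D4:**
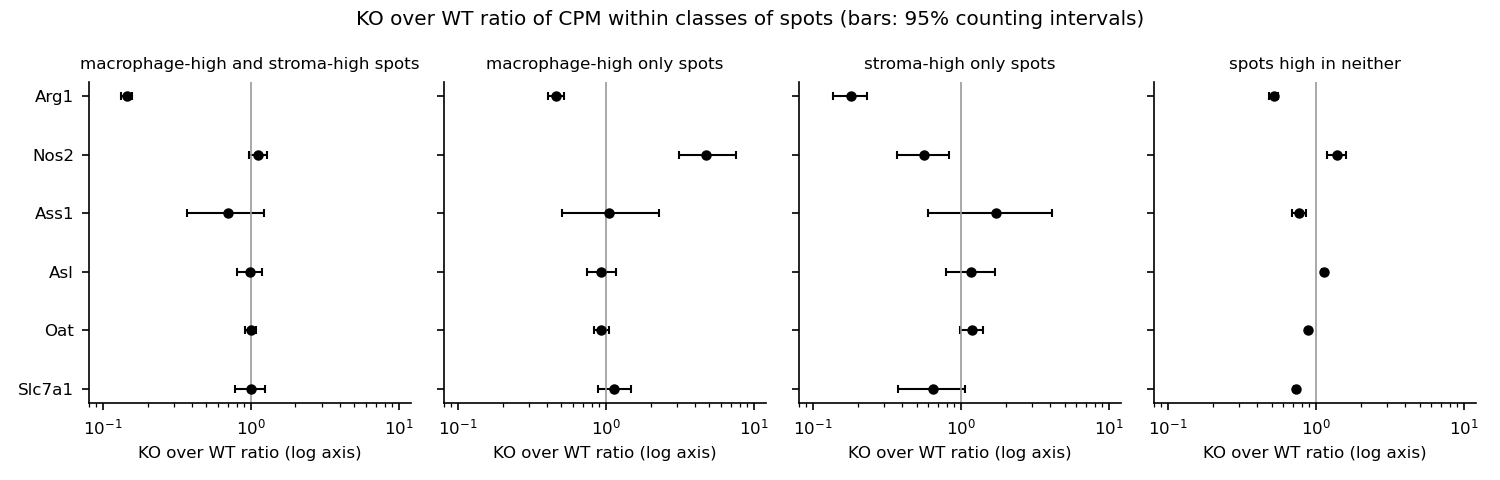
KO over WT ratio of CPM (points, logarithmic axis) with 95% counting intervals for 6 genes within the 4 classes of spots. Arg1 lies left of 1 in every class, from 0.145 to 0.516, while Nos2 lies at 1.12 in spots high in both lists and at 4.74 in spots high in macrophage genes alone.

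Shares of spots gave the same order as the sums. After each spot was thinned to 5000 UMIs, which left out 356 KO and 395 WT spots, 11.6% (10.3 to 12.9) of KO spots and 29.8% (28.1 to 31.6) of WT spots held an Arg1 UMI. Without thinning the share was 26.0% in the KO and 45.4% in the WT section. The median off-tissue gene was seen in 0.167% of thinned KO spots and 0.187% of thinned WT spots, well under both. Arg1 was lower far from the nearest position without tissue than near it. Within 2 grid steps, at 3 to 5, at 6 to 9 and at 10 or more steps, it stood at 44.0, 27.3, 16.8 and 11.4 CPM in the KO section and at 350, 367, 99.8 and 38.4 CPM in the WT section. Stroma genes had 999 CPM at 10 or more steps and 5559 CPM within 2 steps in the KO section, and 4330.0 CPM and 18942 CPM in the WT section.

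Nos2 (chromosome 11, 78920787 to 78960226) encodes inducible nitric oxide synthase, which competes with arginase 1 for arginine. It gave 1013 UMIs in the KO and 1972 UMIs in the WT section, 10.7 CPM and 22.2 CPM, a KO level lower by 2.07-fold (1.92 to 2.24). Its quadrants gave 7.67, 2.75, 29.8 and 13.5 CPM in the KO section, against 60.4, 19.7, 21.8 and 3.38 CPM in the WT section. KO quadrant 3 and WT quadrant 1, the richest in Arg1, were also the richest in Nos2, and the ranges overlapped. With every spot given equal weight the ratio was 0.869, and in melanocytic-rich spots it was 0.969, so the size of the difference moved with the weight given to spots.

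Read by stroma content, Nos2 was higher in the KO section over much of the range. From the lowest to the highest quintile of stroma share it stood at 2.14, 2.71, 9.27, 40.1 and 123 CPM in the KO section, against 1.28, 2.85, 3.77, 16.7 and 120 CPM in the WT section. It was thus higher in the KO section in quintiles 3 and 4 and level with WT in the highest. In quintile 1 it was also higher in KO, with a ratio of 1.67 (1.01 to 2.85) on 63 KO and 22 WT UMIs. In deciles 5 to 9 the KO over WT ratio lay between 1.82 and 3.24. In decile 10 it was 0.663 (0.243 to 1.45), on 6 KO UMIs and 1391 WT UMIs. Macrophage genes were close between the sections in deciles 5 to 7, with 1922 CPM in KO and 1895 CPM in WT in decile 7. They were not matched above, at 5398 CPM in KO and 2456 CPM in WT in decile 8. In decile 9 they stood at 18871 CPM in KO and 5773 CPM in WT. The part of macrophage content in the Nos2 ratios was not tested. Without the highest decile, which held 70.5% of the Nos2 of the WT section, the ratio was 1.47 (1.33 to 1.63), and 2.59 with the other deciles weighted as in WT. Both settings were added after seeing the data.

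Nos2 in spots high in macrophage genes alone gave 228 UMIs in the KO and 24 in the WT section, 84.4 CPM and 17.8 CPM, a 4.74-fold higher level in the KO section (3.11 to 7.56), where 5.41% of 9301 genes were at least 2-fold higher. Spots high in both lists had it at 100.6 CPM in the KO and 89.5 CPM in the WT section, a ratio of 1.12 (0.978 to 1.29) that includes 1, while Arg1 in the same spots had a ratio of 0.145. The Nos2 ratio in spots high in stroma genes alone was 0.564 (0.368 to 0.830), on 27 KO and 534 WT UMIs. Spots high in neither list gave 5.60 CPM in KO and 4.07 CPM in WT, a ratio of 1.38 (1.19 to 1.60). Other lists differed between the sections in these classes. T cell markers summed to 483 CPM in KO and 38.6 CPM in WT in spots high in macrophage genes alone, and interferon gamma response genes to 1587 CPM in KO and 1009 CPM in WT. T cell markers in spots high in both lists summed to 499 CPM in KO and 87.5 CPM in WT, and interferon gamma response genes to 1579 CPM in KO and 682 CPM in WT. Skeletal muscle markers differed most, with 2983 CPM in KO and 162 CPM in WT in spots high in macrophage genes alone, and 4412 CPM in KO and 141 CPM in WT in spots high in both. Neutrophil markers stood at 141 CPM in KO and 63.0 CPM in WT where macrophage genes alone were high, and at 148 CPM in KO and 50.5 CPM in WT where both lists were. The lists did not all follow Nos2 in the other classes. Where stroma genes alone were high, Nos2 was lower in KO. T cell markers had 244 CPM in KO and 36.7 CPM in WT there, and neutrophil markers 46.3 CPM and 29.7 CPM. Interferon gamma response genes had 841 CPM in KO and 868 CPM in WT there, and skeletal muscle markers 18.01 CPM and 95.7 CPM. In spots high in neither list Nos2 was higher in KO. Interferon gamma response genes had 607 CPM in KO and 756 CPM in WT there. T cell markers had 40.6 CPM in KO and 11.99 CPM in WT there. Neutrophil markers had 8.67 CPM in KO and 5.41 CPM in WT, and skeletal muscle markers 41.1 CPM and 22.3 CPM. The part of these lists in the Nos2 values was not tested.

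The relation of Nos2 to the interferon gamma response list also ran in opposite directions inside the sections. In the KO section it stood at 33.1 CPM in the quintile of spots with the highest share of these genes and 6.86 CPM in the lowest, 4.83-fold higher, where 14.3% of genes were at least 2-fold higher. That section had 3 members higher by this measure (Arg1, Nos2, Slc7a2) and 0 lower, where 2.66% of genes were lower. In the WT section it stood at 8.97 CPM in the highest quintile and 106 CPM in the lowest, where 10.4% of genes were at least 2-fold lower. There 3 members were lower and 0 at least 2-fold higher, where 2.31% of genes were higher. Arg1 was likewise higher in the highest quintile of the KO section, at 50.6 CPM against 23.5 CPM in the lowest, and lower in that of the WT section, at 79.3 CPM against 1486 CPM. Hypoxia genes set Nos2 apart the other way round. It stood at 15.2 CPM in the highest and 14.5 CPM in the lowest hypoxia quintile of the KO section, and at 84.0 CPM and 7.41 CPM in those of the WT section, 11.3-fold higher, where 4.16% of genes were at least 2-fold higher. These KO quintiles held 824 and 299 spots. With quintiles cut within each section, the highest over the lowest was 1.77 for Nos2 in KO and 8.84 in WT. In KO spots of at least 5000 UMIs it was 0.862. No member was at least 2-fold lower over the hypoxia quintiles, where 12.7% of genes in KO and 7.97% in WT were. At least 2-fold higher were 1 member in KO (Arg1), where 5.39% of genes were, and 4 in WT (Arg1, Arg2, Nos2, Slc7a2), where 4.16% were. Of these, Arg2 rests on 8 UMIs in the highest and 18 in the lowest WT quintile, and Slc7a2 on 28 and 68. With quintiles cut within the WT section Slc7a2 was 1.24-fold higher. The difference between the sections in these relations was not tested.

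Arg1 and Nos2 were often found in the same spots. In thinned spots 46.6% of the KO spots and 86.3% of the WT spots with a Nos2 UMI also held Arg1, and 29.2% of the KO and 34.2% of the WT spots with Arg1 also held Nos2. Of spots without Arg1, 4.40% in the KO and 2.29% in the WT section held Nos2. Across all spots the Pearson correlation of the 2 genes, on the log2(1 + UMIs per 10000) scale, was 0.41 over 2746 KO spots and 0.59 over 3066 WT spots. Spots of a section share a library and differ in depth, so these values describe the sections only. Co-occurrence in a spot does not place both RNAs in 1 cell.

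Arg2 (chromosome 12, 79130788 to 79156301) encodes arginase 2, the mitochondrial form. It was near the background of the probes, with 90 UMIs in the KO section, under 2 times the background of 47, and 69 UMIs in the WT section. The ratio of 1.23 (0.886 to 1.70) includes 1, and quadrants ran from 0.486 to 1.45 CPM in KO and from 0.330 to 1.61 CPM in WT. No spot of either section had more than 2 UMIs of it. In spots high in neither list the ratio was 2.11 (1.32 to 3.45) on 69 KO and 26 WT UMIs, and in spots high in both it was 2.17 (1.04 to 4.32) on 13 KO and 29 WT UMIs. The KO sum lies under 2 times the background, so no direction is read from these values.

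Of the synthesis genes, Ass1 was spread through the tumour and Asl was lower in stroma-rich spots. Ass1 (chromosome 2, 31470270 to 31520670) encodes argininosuccinate synthase, which joins citrulline and aspartate. It gave 703 UMIs in the KO and 829 UMIs in the WT section, 7.44 CPM and 9.34 CPM, a ratio of 0.797 (0.720 to 0.882). The quadrants gave 6.37, 7.21, 8.26 and 8.53 CPM in the KO section, against 9.24, 9.48, 8.70 and 9.70 CPM in the WT section. Ass1 was the 1 member whose quadrants did not overlap between sections, with all KO quadrants below all WT quadrants, as were those of 6.18% of all genes with at least 50 UMIs. Its Moran's I was 0.0264 in the KO and 0.0269 in the WT section, and it stood at 4.45 CPM in the highest and 6.26 CPM in the lowest stroma quintile of the KO section, and at 7.57 CPM and 9.79 CPM in those of the WT section. The gene thus had little spatial pattern in either tumour, and its RNA was low throughout.

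Asl (chromosome 5, 130011258 to 130024381) encodes argininosuccinate lyase, which releases arginine and fumarate. It gave 9904 UMIs in the KO and 7786 UMIs in the WT section, 104.9 CPM and 87.7 CPM, a ratio of 1.20 (1.16 to 1.23). The quadrants gave 104.8, 108, 93.3 and 107 CPM in the KO section, against 60.9, 91.1, 90.6 and 97.0 CPM in the WT section, with KO quadrant 3 inside the WT range. The stroma-rich WT quadrant 1 was the lowest. In the 5 lowest stroma deciles the ratio lay between 1.15 and 1.19. In deciles 6 to 9 it was 0.965 (0.886 to 1.05), 0.901 (0.806 to 1.01), 0.852 (0.737 to 0.983) and 0.639 (0.475 to 0.847). In decile 10 it was 1.43 (0.294 to 4.22), on 3 KO UMIs. The highest stroma quintile gave 0.868 (0.659 to 1.13). Spots high in stroma genes alone gave 1.17 (0.787 to 1.69), and spots high in both lists 0.979 (0.801 to 1.19). The highest macrophage quintile gave 1.21 (1.03 to 1.43). The direction in stroma-rich spots thus depended on how they were cut. With TMM factors the whole-section ratio was 1.03.

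Oat (chromosome 7, 132557475 to 132576398) encodes ornithine aminotransferase, the mitochondrial enzyme that links ornithine to proline and glutamate. It gave 39371 UMIs in the KO and 39215 UMIs in the WT section, 417 CPM and 442 CPM, a ratio of 0.944 (0.930 to 0.957) that became 1.03 with equal weight per spot. The quadrants gave 423, 412, 407 and 419 CPM in the KO section, against 345, 548, 331 and 440.2 CPM in the WT section. The KO quadrants were nearly even, while the WT quadrants spanned 1.65-fold, and the KO range lay inside the WT range. Spots high in both lists had 264 CPM in KO and 265 CPM in WT, and spots high in neither had 425 CPM in KO and 483 CPM in WT.

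Slc7a1 (chromosome 5, 148327410 to 148399904) encodes CAT1, the widely expressed importer of arginine and other cationic amino acids. It gave 8426 UMIs in the KO and 9671 UMIs in the WT section, 89.2 CPM and 109 CPM, a ratio of 0.819 (0.795 to 0.843). The quadrants gave 88.7, 92.7, 80.3 and 90.5 CPM in the KO section, against 63.8, 128, 82.8 and 130 CPM in the WT section, and overlapped. The interval of the ratio lay below 1 in only 1 of the 4 classes, spots high in neither list, at 0.728 (0.706 to 0.750). Spots high in both had 0.994 (0.784 to 1.25). By stroma deciles it lay below 1 in stroma-rich spots too, at 0.754 (0.647 to 0.875) in decile 8 and 0.636 (0.454 to 0.874) in decile 9. In deciles 7 and 10 it included 1. The highest macrophage quintile went the other way, at 1.69 (1.399 to 2.03). The difference between classes was not tested.

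Slc7a2 (chromosome 8, 40862341 to 40922070) encodes CAT2, the importer that supplies arginine to activated macrophages. It gave 111 UMIs in the KO and 175 UMIs in the WT section, 1.18 CPM and 1.97 CPM, a ratio of 0.596 (0.466 to 0.760), and was just above 2 times the background in the KO section. The quadrants gave 1.36, 0.769, 2.04 and 0.976 CPM in the KO section, against 6.58, 0.991, 2.29 and 0.330 CPM in the WT section. WT quadrant 1, rich in Arg1 and stroma genes, was the only WT quadrant above 3 CPM. Leaving out the quadrant with the most Arg1 in each section gave a ratio of 0.972, and leaving out the highest stroma decile gave 1.11 (0.830 to 1.50), so the lower sum in the KO section went with that area.

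By place, 7 of the 8 genes fell into 3 patterns seen in both sections, and Arg2 was too rare to place. Arg1, Nos2 and Slc7a2 were highest in stroma-rich and melanocyte-poor spots. They were also higher in the highest than in the lowest quintile of macrophage share, by 46.0-fold, 31.4-fold and 21.0-fold in KO. In WT these values were 22.6-fold, 6.68-fold and 25.5-fold. Slc7a2 rests there on 25 against 11 UMIs in KO and 93 against 2 in WT. In the KO section Slc7a2 stood at 7.41 CPM in spots high in macrophage genes alone, and had 0 UMIs in the 24 spots high in stroma genes alone. Across the stroma quintiles of the KO section the highest over the lowest was 111-fold for Arg1 and 57.6-fold for Nos2. It was 16.6-fold for Slc7a2, on 8 against 9 UMIs. Of all genes tested in this section, 23.8% were at least 2-fold higher. The members Slc7a1 and Asl were at least 2-fold lower there, where 20.3% of genes were. In the WT section the same comparison gave 1608-fold for Arg1 on 20826 against 17 UMIs, 93.7-fold for Nos2 and 53.4-fold for Slc7a2 on 122 against 3 UMIs. Arg2, on 32 against 3 UMIs, was also higher, so that 4 members were at least 2-fold higher, where 23.7% of genes were. Slc7a1, Asl and Oat ran the other way and were at least 2-fold lower there, where 16.5% of genes were. From the lowest to the highest stroma quintile Slc7a1 had 98.2, 90.3, 86.1, 78.0 and 31.8 CPM in the KO section and 139.7, 136.5, 116, 86.7 and 32.6 CPM in the WT section. Oat ended at 261 CPM in KO and 262 CPM in WT in the highest quintile, beside 434 CPM in KO and 575 CPM in WT in the lowest. Asl had 40.1 CPM in KO and 46.2 CPM in WT in the highest quintile, beside 110.7 CPM in KO and 95.8 CPM in WT in the lowest. Ass1 stayed within 4.45 to 10.7 CPM in every quintile of both sections. With stroma quintiles cut within each section instead, the highest over the lowest was 0.622 in KO and 0.177 in WT for Slc7a1. For Asl it was 0.640 in KO and 0.412 in WT, and for Oat 0.732 and 0.445. By that cut Slc7a1 and Asl were thus lower in KO by less than 2-fold.

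**Figure D5:**
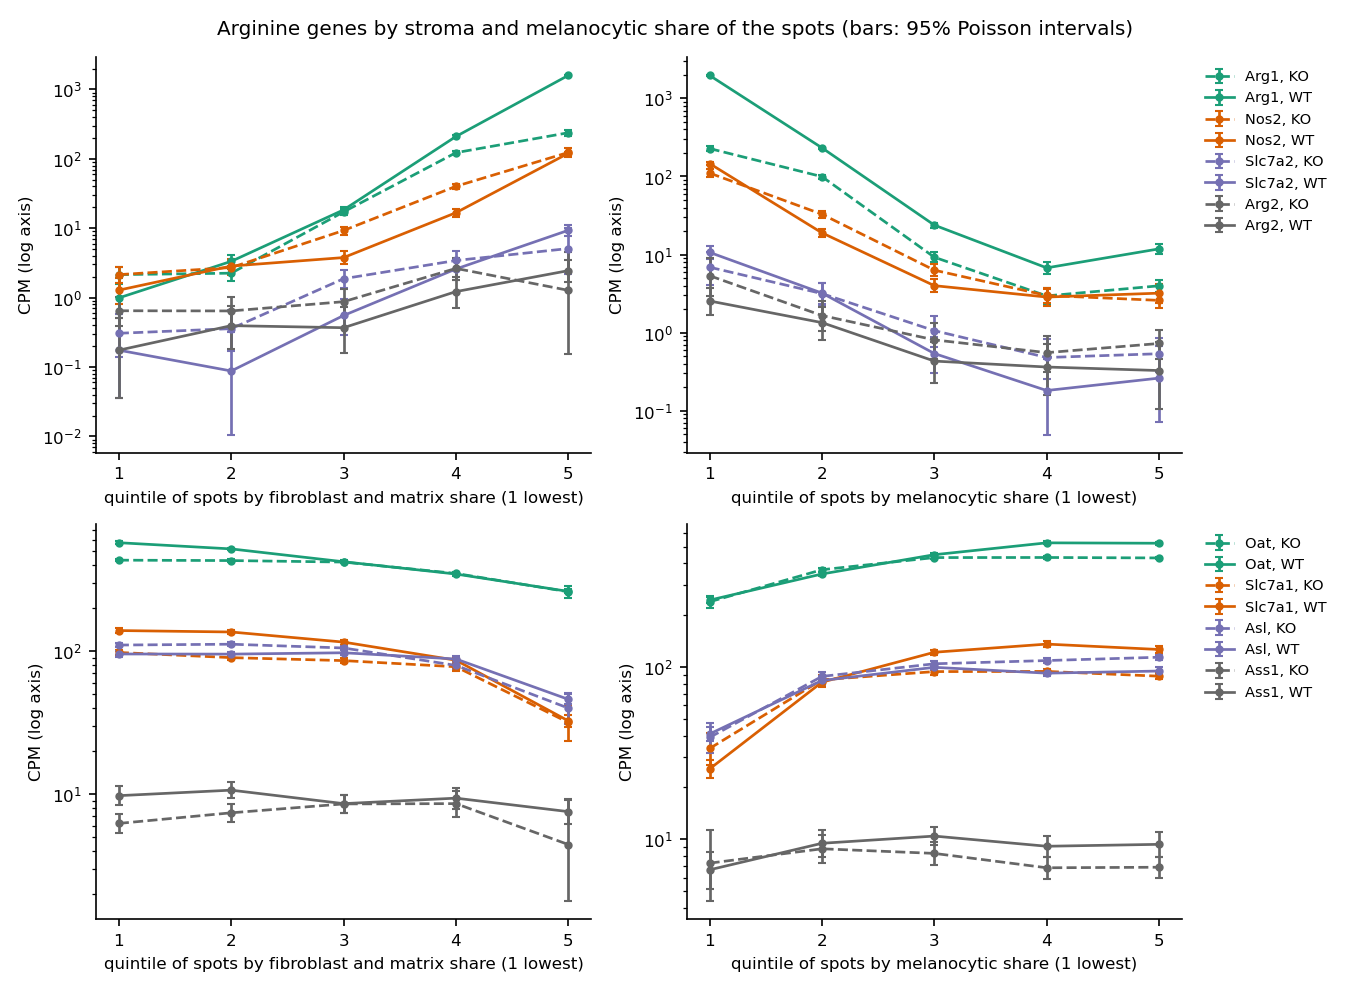
CPM (logarithmic axis) of the 8 genes in quintiles of spots by stroma share (left) and melanocytic share (right), dashed for KO and solid for WT, with 95% Poisson intervals. Arg1, Nos2 and Slc7a2 climb with stroma and are low at high melanocytic share in both sections, and Slc7a1, Asl and Oat are low at high stroma share.

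The melanocytic quintiles mirrored this. From the highest over the lowest, 4 members (Arg1, Arg2, Nos2, Slc7a2) were at least 2-fold lower in both sections, where 26.6% of genes in KO and 24% in WT were. Of these, Arg2 rests on few UMIs, 23 in the highest and 14 in the lowest quintile in KO, and 5 and 26 in WT. Slc7a2 rests on 17 and 18 UMIs in KO, and 4 and 109 in WT. At least 2-fold higher were 2 members in KO (Asl, Slc7a1), where 16% of genes were, and 3 in WT, where 20.9% were. Cut within the KO section, the quintiles gave 2.25-fold for Asl and 1.82-fold for Slc7a1. The values that follow are from the quintiles cut over both sections. Arg1 stood at 3.98 CPM in the highest and 228 CPM in the lowest quintile of the KO section, and at 11.8 CPM and 1969 CPM in those of the WT section. Slc7a1 stood at 88.5 CPM in the highest and 33.7 CPM in the lowest quintile of the KO section, and at 126 CPM and 25.6 CPM in those of the WT section. For Oat the values were 429.9 CPM and 239 CPM in KO, and 523 CPM and 245 CPM in WT. At high melanocytic share, Slc7a1 and Oat were therefore lower in the KO than in the WT section, and at low share Slc7a1 was higher in KO and Oat nearly level.

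Genes that varied most like each member over spots were named by a fixed rule, and bear on place only. In the WT section the 8 genes closest to Arg1 among 10178 were Rarres2, Pdpn, Pf4, Ccl6, Srgn, Fn1, Ccl9 and Basp1, with Pearson r from 0.73 to 0.78. Pf4, Ccl6 and Ccl9 are chemokines, Rarres2 encodes the chemoattractant chemerin, Pdpn encodes podoplanin, Srgn a granule proteoglycan and Fn1 fibronectin, which is itself in the stroma list. In the KO section Pf4, Thbs1, Hmox1 and Fbln2 were among the 5 closest of 10014, with r from 0.51 to 0.54. Pf4 stood in both, with 70.4 CPM in the KO and 434 CPM in the WT section, a ratio of 0.162, and Rarres2 stood at 66.6 CPM in KO and 118 CPM in WT, a ratio of 0.565. The ratios of the 8 genes nearest to Arg1 in the WT section lay between 0.162 and 0.565, above the Arg1 ratio of 0.0894.

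For Nos2 the 3 closest genes in the WT section were Ndufa4l2, a mitochondrial protein known to be induced by hypoxia (r = 0.64), Rarres2 (0.61) and Arg1 itself (0.59). For Slc7a1 they were Slc24a5 (0.58), Rab27a (0.56) and Tyr (0.56), which serve melanosomes or pigment synthesis. For Oat they were Ss18l2 (0.57), Rab27a (0.55) and Spg21 (0.55), and for Asl Tspan10 (0.41), Rab27a (0.41) and Ss18l2 (0.40). Rab27a thus recurred beside all 3 genes of melanocyte-rich spots, and for Ass1 no gene reached an r of 0.3. Depth varied with these values too, as Oat correlated with the UMIs per spot at 0.552 in the KO and 0.643 in the WT section.

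Promoters of 3 members were at hand in RefSeq (GRCm38.p6), as windows from 250 bases before to 50 bases after the start, read along the gene's own strand. Oat and Slc7a1 are shown because they varied together with melanocytic genes over spots, and Ass1 because it did not. Slc7a1 has a second window, and the one at the start of the annotated gene is printed. The windows were searched on both strands for CACGTG and CATGTG, the E-box forms bound by the melanocyte factor MITF, with CACGTG also bound by MYC, and for TGATGNAA, the core of the element bound by ATF4, which responds to amino acid shortage. A match is printed in capitals.
Ass1, chr2:31470020-31470319, plus strand: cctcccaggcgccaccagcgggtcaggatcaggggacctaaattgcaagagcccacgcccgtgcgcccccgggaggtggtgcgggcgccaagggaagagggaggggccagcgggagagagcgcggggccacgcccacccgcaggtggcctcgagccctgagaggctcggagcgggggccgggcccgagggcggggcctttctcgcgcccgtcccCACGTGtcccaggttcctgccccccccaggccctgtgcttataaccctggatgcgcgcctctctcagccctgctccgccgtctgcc
Oat, chr7:132576349-132576648, minus strand: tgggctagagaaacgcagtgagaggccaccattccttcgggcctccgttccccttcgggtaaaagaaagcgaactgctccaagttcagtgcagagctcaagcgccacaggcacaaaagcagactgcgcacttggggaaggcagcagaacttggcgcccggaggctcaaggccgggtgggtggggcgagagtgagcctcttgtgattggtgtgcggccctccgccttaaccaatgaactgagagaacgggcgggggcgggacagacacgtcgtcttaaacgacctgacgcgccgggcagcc
Slc7a1, chr5:148399855-148400154, minus strand: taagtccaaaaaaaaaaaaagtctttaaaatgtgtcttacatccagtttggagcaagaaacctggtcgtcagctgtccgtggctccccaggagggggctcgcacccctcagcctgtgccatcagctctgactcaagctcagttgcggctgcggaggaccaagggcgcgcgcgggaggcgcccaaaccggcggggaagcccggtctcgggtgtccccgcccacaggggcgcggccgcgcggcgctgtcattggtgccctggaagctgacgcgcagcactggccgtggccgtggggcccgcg
The Ass1 window held 1 CACGTG, which begins 36 bases before the start. Among 32851 windows of the same length, 7.15% held CACGTG, 14.2% held CATGTG and 3.97% held TGATGNAA. The windows of Oat and Slc7a1, the second of Slc7a1 included, held none of the 3 motifs, which says only that these letters are not in them.

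Other genes of arginine and ornithine metabolism were read from a list of 36, of which 33 are in the matrix and 32 had at least 50 UMIs. Of these 20 had a ratio below 1 and 12 above, with 4 at least 2-fold lower and 2 at least 2-fold higher. Of all genes 38% were below 1, 4.85% at least 2-fold lower and 14.7% at least 2-fold higher, and of genes with at least 500 UMIs 48.8% were below 1. The median log2 ratio of the list was -0.15. Of the genes that join ornithine to proline and glutamate 5 of 5 were below 1, beside 38% of all genes, with a median of -0.45. Aldh18a1, the first enzyme of proline synthesis from glutamate, gave 16145 UMIs in the KO and 31147 in the WT section, a ratio of 0.487 (0.478 to 0.496). Pycr1, which makes the last step to proline in mitochondria, gave 1602 in KO and 3252 in WT, a ratio of 0.463 (0.436 to 0.492). Aldh4a1, an enzyme of proline breakdown, had a ratio of 0.885.

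Of the polyamine genes 4 of 5 were below 1, beside 38% of all genes. Odc1, ornithine decarboxylase, had a ratio of 0.774 (0.718 to 0.835), Azin1, which spares it from degradation, 0.830, and Azin2, a relative of Azin1, 0.200 on 194 KO and 912 WT UMIs. Agmat, agmatinase, had a ratio of 1.98 on 59 KO and 28 WT UMIs, under 2 times the background in both sections. Among genes of nitric oxide, its cofactor tetrahydrobiopterin and methylarginine, 4 of 7 were below 1, beside the same 38%. Ddah2, which degrades methylated arginines that inhibit nitric oxide synthases, had the lowest ratio, 0.366 on 711 KO and 1824 WT UMIs. The cofactor genes stayed close to 1, with 0.859 for Gch1, 1.17 for Pts and 1.09 for Spr.

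Gatm, which uses arginine for creatine, had a ratio of 0.513 on 610 KO and 1117 WT UMIs, and Gamt, the next enzyme, 0.944. Among transporters 3 of 8 were below 1, near the 38% of all genes. Slc3a2, the heavy chain shared by several amino acid exchangers, had 1.12, Slc7a7, the light chain of the y+L exchanger, had 0.742, and Slc25a2, a mitochondrial ornithine carrier, had 2.90 on 71 KO and 23 WT UMIs, under 2 times the background in both sections. The arginine sensors gave 1.13 for Castor1 and 0.678 for Castor2, and Atf4, the stress response factor, gave 0.906. The urea cycle genes Nags and Cps1 gave 53 and 47 UMIs in the KO section and 22 and 34 UMIs in the WT section, all under 2 times the background.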

How the data were processed

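Gene by spot matrices of UMI counts were used as the authors deposited them, and per the file headers Space Ranger 2.1.0 wrote them. Per the submitters' processing notes, featureCounts and mm10 were also involved, with no role given. The score Moran's I was taken from the authors' deposited spatial tables per section (column I). Spots under tissue were used, and counts were summed over spots and scaled to 1000000 UMIs. Ratios are KO over WT with exact conditional binomial (Clopper-Pearson) intervals, CPM values have exact Poisson intervals, and shares of spots exact binomial ones, all at 95% and for counting error only. Spots of 1 tumour are not replicates, so no p-value was computed. Log2 ratios had 0.5 added to each count, and genes with at least 50 UMIs over both sections were counted.

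Quintiles, deciles and upper quartiles of spots were cut over the spots of both sections together. None of the 8 members is in a marker list. For the shares over all genes, list genes were not left out of their own list. The members, marker lists, pathway list and settings were chosen with earlier results of these data known. All 8 members are named. The genes most like a member have the highest Pearson r of log2(1 + UMIs per 10000) over spots, among genes of 500 UMIs or more in that section (8 for Arg1 in WT, 5 in KO, and 3 with r of at least 0.3 for each other member in WT). Of each pathway group the 2 most counted genes are named, with the genes of extreme ratio on either side. A few genes that these rules name are not reported here. Pycr3, Srm, Slc66a1 and Ldha were not analysed here. The sums over spots were checked against the authors' deposited totals and were equal for 19339 KO and 19296 WT genes. Barcodes are positions of a fixed array, of which 2138 were used in both sections. Scaling factors came from edgeR 4.0.16 (TMM) and DESeq2 1.42.0 (median of ratios) in R 4.3.3, and other steps ran in Python 3.11.15 with scipy 1.17.1. The ratio interval and the log2 ratio were tested on simulated counts, and the distance in grid steps on a simulated patch of tissue. The other steps were not tested in that way.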

Additional observations from a re-analysis of the deposited data

How the results depend on the processing

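With 1 section per genotype, counting error is the only error measured, and depth limits Arg2, Slc7a2 and the 9 KO spots of the highest stroma decile. No paired analysis was possible because each genotype has 1 section so no 2 pairs exist. Arg1 stayed below a ratio of 1 in all settings run, between 0.0763 and 0.606. The members' median log2 ratio of -0.31 became -0.53 with TMM factors and -0.54 with median-of-ratios size factors, as the median of all genes went to -0.06 and -0.08, and it became -0.15 both in melanocytic-rich spots and with spots weighted equally. The number of members at least 2-fold lower was 1 in place of 2 in melanocytic-rich spots, with spots weighted equally and without the quadrant with the most Arg1, and the number with a ratio below 1 stayed within 1.5 times of 6 in each planned setting. Oat turned to 1.03 with equal weight per spot and Slc7a2 to 1.97 in melanocytic-rich spots. Among settings added after seeing the data, Nos2 turned to 1.23 with the KO stroma deciles weighted as in WT, 1.47 in the lower 9 deciles, 2.59 in those weighted as in WT and 2.72 per 1000 stroma UMIs, and Slc7a2 to 1.61, 1.11, 1.52 and 3.36 in the same order. The last scaling raises the ratio of every gene by the same factor. Per 1000 macrophage UMIs Nos2 stood at 0.682 and Slc7a2 at 0.842. With quintiles cut within each section, the highest over the lowest hypoxia quintile of the KO section was 0.981 for Asl and 0.978 for Oat. The KO correlation of Nos2 with the hypoxia list was -0.0018 as Spearman's rho and -0.017 in spots of at least 5000 UMIs, and the WT correlation of Ass1 with it was -0.048 as Spearman's rho. The cause of these turns was not tested.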
